A study of Mus musculus with 19 samples.

Results

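The ERVK superfamily of endogenous retroviruses was followed in bone-marrow RNA-seq of mice labelled MT, with mutant Asxl1, and WT, wild-type. Members were the subfamilies that the deposited transposable element (TE) counts assign to family ERVK and class LTR: 279 of the 1071 TE subfamilies listed in any library, of which 274 were listed in every cell set. Of these, 46 were internal regions (the retroviral coding part, named -int or -I) and 233 were long terminal repeats (LTRs, the flanking promoter-bearing repeats). By name, 25 belonged to IAP, 10 to ETn and MusD, 15 to the MMERVK10 type and 2 to MMTV, here called the young tiers, 43 were RMER repeats and 184 were other ERVK of mixed and mostly older age. The files give no age or length for a subfamily, so the tiers rest on names alone.

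The 19 libraries fell into 6 groups. CD11b+ myeloid cells came from mice of 4 months (3 MT and 4 WT libraries) and of 18 months (3 MT and 3 WT), and LK cells, the progenitor fraction that is lineage-negative and c-Kit+, from mice of 18 months (3 MT and 3 WT). All cells were taken from bone marrow and used directly. The labels give the genotype only as MT or WT, with no allele, strain, sex, promoter or Cre, and do not say whether the replicates of a group are separate animals, so p-values measure the spread between these libraries, which may be technical. The study concerns a complex of mutant ASXL1 with the histone methyltransferase EHMT and the state of heterochromatin.

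ERVK elements are betaretrovirus-like proviruses. IAP and ETn/MusD copies still move in the mouse germ line, and MMTV is the mouse mammary tumour virus, which also exists as an endogenous provirus. In embryonic cells these elements are kept silent by KRAB zinc finger proteins that bring TRIM28 and the H3K9 methyltransferase SETDB1 to the provirus. EHMT1 and EHMT2 write H3K9 dimethylation, and DNMT1 maintains DNA methylation on IAP copies in differentiated cells.

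Each library held 26251822 to 68260809 gene counts, and the ERVK counts came to between 172994 and 296175. Myeloid markers summed to between 30134 and 130420 CPM (counts scaled to the library's gene counts) in the CD11b groups against 526 to 3260 in LK cells, and Kit stood at 169.8 to 220 CPM in LK cells against 62.2 to 115 in CD11b cells. Replicates 2 and 3 of each 18-month group were closer to each other than to replicate 1: their chi-square per degree of freedom over genes was 3.02 to 6.74, against 14.6 to 47.6 for pairs with replicate 1, and over ERVK subfamilies 2.02 to 3.95 against 5.03 to 15.6. In the 4-month set, MT replicate 3 and WT replicate 4 stood apart, with the Y-linked Ddx3y at 104 and 110 CPM against at most 0.037 in the other 5 libraries, and Xist at 0 and 0.31 CPM against at least 1693. The 18-month libraries all carried Ddx3y. Asxl1 itself stood at 223 ± 14.6 (n = 4) and 203 ± 1.72 CPM (n = 3) in WT and MT libraries of 4 months, 291 ± 13.5 and 291 ± 6.04 CPM (n = 3 each) in CD11b cells of 18 months and 113 ± 6.04 and 95.0 ± 2.54 CPM (n = 3 each) in LK cells, a level that does not show which allele was read. The TE tables also list 7SK RNA, a small nuclear RNA without a poly(A) tail, at 166079 to 382187 counts in each 4-month library and at 134 to 330 in each 18-month library, so age cannot be told apart from how the sets were prepared. In bulk libraries, fewer cells of a type and less RNA per cell cannot be told apart either.

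The amount and the makeup of ERVK RNA depended on the cell set. ERVK counts came to 8.54 ± 1.57 (SD, n = 4) per 1000 gene counts in 4-month WT CD11b cells, 4.33 ± 0.0109 (n = 3) in 18-month WT CD11b cells and 5.30 ± 0.204 (n = 3) in WT LK cells. IAP kept a similar level in CD11b cells of both ages, 1.59 ± 0.145 and 1.67 ± 0.0547 per 1000 gene counts, and stood lower in WT LK cells at 0.987 ± 0.126. The ETn and MusD tier had another order, at 0.457 ± 0.0679 in 4-month, 0.265 ± 0.0118 in 18-month and 1.61 ± 0.140 in LK WT cells. RMER repeats stood at 1.96 ± 0.446 in 4-month and 0.555 ± 0.0259 in 18-month WT CD11b libraries and at 0.382 ± 0.0108 in WT LK libraries. The WT ranges of RMER and of the ETn and MusD tier did not overlap between the 3 cell sets. Per 1000 TE counts the order of the sets was another: all ERVK stood at 65.0 ± 0.770, 126 ± 5.62 and 168 ± 0.823 in 4-month CD11b, 18-month CD11b and LK WT libraries. On that scale IAP stood at 12.3 ± 1.89, 48.5 ± 3.79 and 31.3 ± 2.94, ETn and MusD at 3.50 ± 0.228, 7.66 ± 0.0242 and 50.9 ± 2.68, and RMER at 14.8 ± 0.50, 16.1 ± 0.0233 and 12.1 ± 0.795. The TE counts also hold rows outside the LINE, SINE, LTR and DNA classes, 7SK among them, and more so at 4 months. Those 4 classes gave 3001006 of 3370285 TE counts in 4-month WT replicate 2 and 1389473 of 1400436 in 18-month WT CD11b replicate 2. The 4-month shares of TE counts are lowered by this. All these are shares of counts with no correction for the length of a subfamily.

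**Figure D1:**
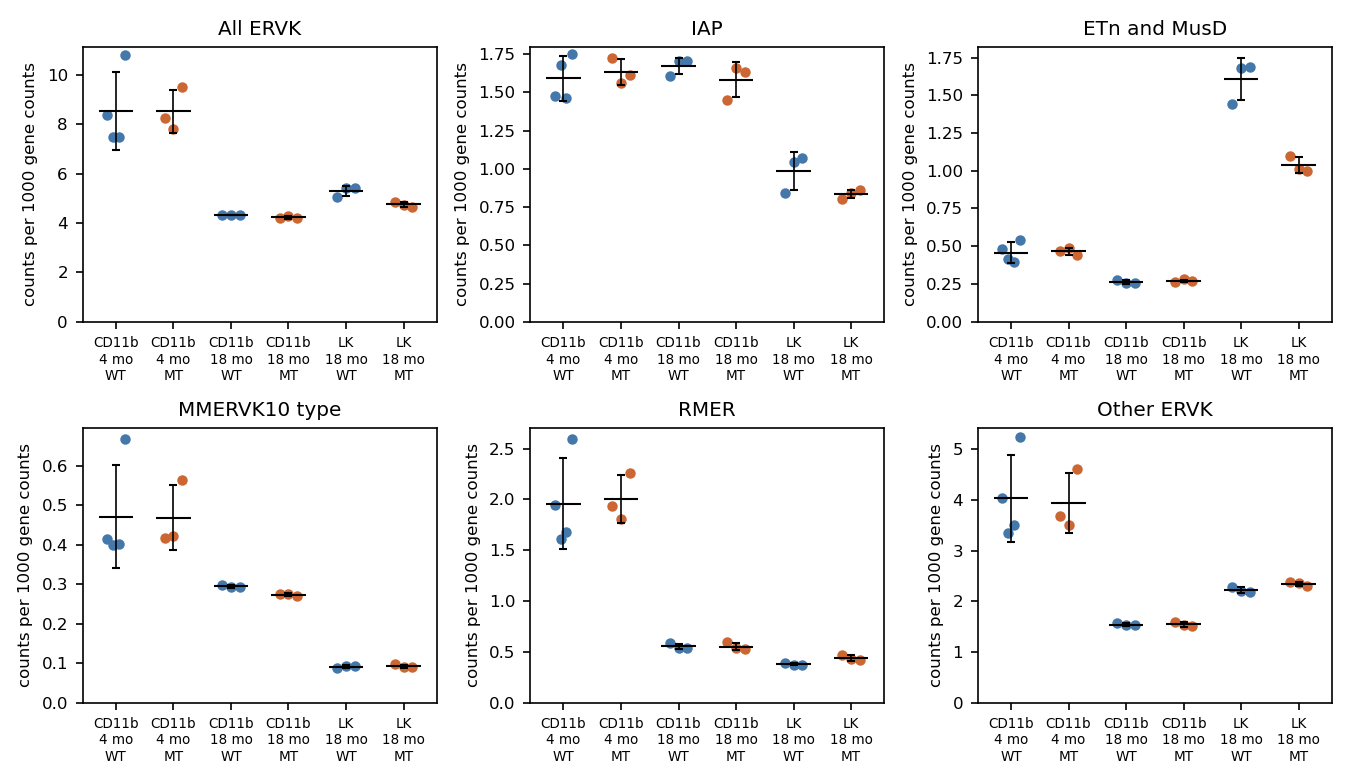
Summed counts per 1000 gene counts of all ERVK subfamilies and of 5 tiers (y axes, from 0) in each library of the 6 groups (x axes; blue WT, orange MT). Lines are group means and bars SDs. IAP is near 1.6 in all CD11b groups and below 1.1 in LK cells, and the ETn and MusD tier is highest in WT LK cells.

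Internal regions were 6 of the 10 most abundant subfamilies. By the mean over the 6 groups the 10 with the highest CPM were IAPEz-int (725 CPM), RLTR19-int (520.0), MMETn-int (399), IAPEY4_I-int (295), SRV_MM-int (202), RLTR17B_Mm (165), RMER12B (130.2), RMER19B (126), MLTR18B_MM (123) and ETnERV2-int (113). The order differed between the cell sets. The highest means were those of IAPEz-int (783 CPM), SRV_MM-int (457) and RLTR17B_Mm (412) in 4-month WT CD11b cells, and of IAPEz-int (925), IAPEY4_I-int (481) and RLTR19-int (360.5) in 18-month WT CD11b cells. In WT LK cells they were those of MMETn-int (1127), RLTR19-int (920.5), IAPEz-int (579.7) and RLTR13G (197), while SRV_MM-int stood at 5.14 CPM there. IAPEz-int, the internal region of the full-length IAP elements, made up 17.3% ± 1.42 (n = 3) of ERVK counts in 18-month WT CD11b cells and 13.8% ± 1.89 (n = 3) in WT LK cells. MMETn-int, the internal region of ETn elements, made up 26.8% ± 1.47 of ERVK counts in WT LK cells but 0.850% ± 0.0161 in 18-month WT CD11b cells. Internal regions together gave 71.1% ± 1.54 of ERVK counts in WT LK cells, 57.6% ± 0.410 in 18-month WT CD11b cells and 38.6% ± 2.80 in 4-month WT CD11b cells.

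The genotype comparison in 4-month CD11b cells called no ERVK subfamily. Of 266 tested, edgeR's quasi-likelihood test called 0 at an adjusted p under 0.05, with 2 at an unadjusted p under 0.05, and DESeq2 also called 0, with 1 at that unadjusted p. Over all TE subfamilies tested, 0% were called. The summed ERVK share was 8.53 ± 0.881 (n = 3) in MT and 8.54 ± 1.57 (n = 4) in WT libraries per 1000 gene counts (two-sided exact permutation p = 1.0, smallest possible 0.0286). The median log2 fold change of the members was -0.02, against -0.04 over all TE subfamilies tested. Without the libraries MT replicate 3 and WT replicate 4, SRV_MM-int was called lower in MT (-0.50 on the log2 scale, adjusted p = 0.0251 by edgeR). With Ddx3y as a covariate the calls were SRV_MM-int (-0.34, adjusted p = 0.0115 by edgeR) and MMTV-int (-0.53, adjusted p = 0.00200 by edgeR), both lower.

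In 18-month CD11b cells 2 of 261 ERVK subfamilies tested were called, 1 in each direction, where 0.458% of all TE subfamilies tested were called. RMER17C-int, the internal region of an RMER repeat, stood at 10.3, 8.57 and 9.26 CPM in the MT libraries against 5.42, 5.87 and 5.91 in the WT libraries. All 3 MT libraries were above all 3 WT libraries, and the log2 fold change was 0.71 ± 0.114 (SE; adjusted p = 0.00708, edgeR quasi-likelihood test with Benjamini-Hochberg adjustment). IAPEY4_LTR, an IAP LTR, stood at 1.07, 1.07 and 0.84 CPM in MT against 2.72, 1.62 and 1.78 in WT libraries, with no overlap and a log2 fold change of -1.04 ± 0.208 (adjusted p = 0.0345, edgeR). Its internal partner IAPEY4_I-int, at 436, 543 and 535 CPM in MT and 526, 456 and 460 in WT libraries, overlapped between the genotypes. In all, 43 of 261 members had an unadjusted p under 0.05 in edgeR, against 97 of 873 TE subfamilies tested. DESeq2 called 3 members. The count of calls fell to 0 when any 1 of the 3 MT libraries was left out and rose to 31 without WT replicate 1, of which 9 were higher and 22 lower. The share over all TE subfamilies was not taken for these counts. The summed ERVK share was 4.23 ± 0.0538 in MT and 4.33 ± 0.0109 in WT libraries, with no overlap, a difference of -0.105 per 1000 gene counts and the smallest exact permutation p that 3 against 3 allows, 0.1.

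In LK cells of 18 months, ERVK subfamilies were called between the genotypes in both directions. The share called was near that of all TE subfamilies, at 16.9% against 20%. Those lower in mutant libraries included MMETn-int, ETnERV-int and MMTV-int. The test called 42 of 249 ERVK subfamilies, 33 higher and 9 lower in MT, where 20% of all TE subfamilies tested were called, 15.2% higher and 4.79% lower. The median log2 fold change of the members was 0.09, against 0.08 over all TE subfamilies tested, so the share called and the median were near those of TE subfamilies in general. Among internal regions 5 of 43 were called higher and 6 lower, with a median of -0.05, so internal regions did not move in 1 direction. RLTR19-int, at 992, 890 and 879 CPM in WT and 999, 1038 and 1018 in MT libraries, was not called (0.12 ± 0.0773, adjusted p = 0.308, edgeR). Among LTRs 28 of 206 were called higher and 3 lower, with a median of 0.11. In the young tiers the split was sharper: 2 of 18 internal regions were called higher and 4 lower, against 10 of 31 LTRs higher and 0 lower, and the medians were -0.14 and 0.29. When library sizes came from the TE counts themselves, 16 members were called higher and 15 lower in place of 33 and 9. That scaling moved the median of all TE subfamilies from 0.08 to 0.01.

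**Figure D2:**
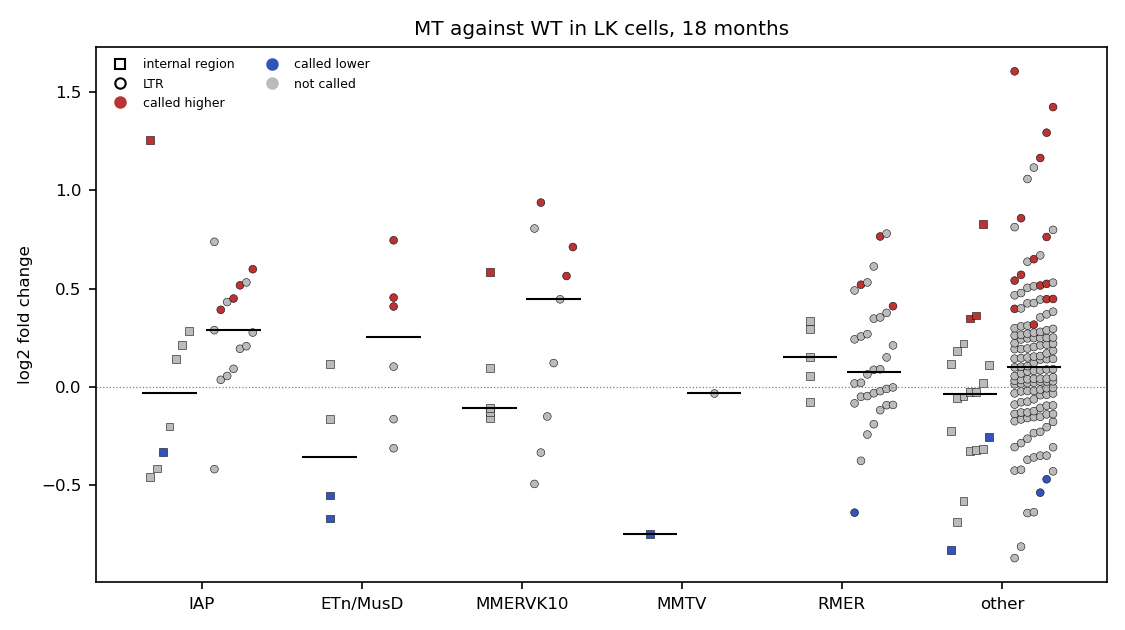
Log2 fold change of MT against WT in LK cells (y axis) for the 249 ERVK subfamilies tested, by tier (x axis). Squares are internal regions and circles LTRs, coloured where called at an adjusted p under 0.05, and lines are medians. In the young tiers the 10 called LTRs are all higher, while 4 of the 6 called internal regions are lower.

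The largest fall in CPM among the called members was that of MMETn-int. It stood at 1039.8, 1168 and 1173 CPM in the WT and at 743, 707 and 718 CPM in the MT libraries of LK cells. Every MT library was below every WT library, and the log2 fold change was -0.67 ± 0.0826 (adjusted p = 2.5e-05, edgeR). Its part of all ERVK counts was 26.8% ± 1.47 in WT and 18.3% ± 0.703 in MT libraries. ETnERV-int, the internal region of the related MusD-like proviruses, stood at 27.5, 36.6 and 36.4 CPM in WT against 24.0, 24.2 and 21.7 in MT libraries, again without overlap (-0.55 ± 0.108, adjusted p = 0.00373, edgeR). ETnERV2-int, of the same tier, was at 6.17, 6.13 and 5.90 CPM in WT and 6.14, 7.24 and 6.76 in MT libraries and was not called (0.12 ± 0.10, adjusted p = 0.457, edgeR). The ETn and MusD tier as a whole went from 1.61 ± 0.140 to 1.04 ± 0.0526 per 1000 gene counts, with no overlap (exact permutation p = 0.1, the smallest that 3 against 3 allows).

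MMTV-int, the internal region of the mammary tumour virus, was lower in MT LK libraries at 3.18, 4.15 and 3.37 CPM against 5.71, 5.91 and 6.0 in WT, with no overlap (-0.75 ± 0.119, adjusted p = 0.000323, edgeR). In the other cell sets, which share no library with LK, its log2 fold changes were -0.54 at 4 months and -0.53 at 18 months. Neither was called, with adjusted p-values of 1.0 and 0.237 in edgeR. IAPEz-int stood at 480, 623 and 636 CPM in WT LK libraries and at 446, 475 and 493 in MT libraries, and was called lower (-0.33 ± 0.0964, adjusted p = 0.0199, edgeR). Here the groups overlapped, because WT replicate 1 lay within the MT range, and the call was lost under 5 of 12 alternatives. The other called falls with at least 50 counts were RMER16C, RLTR20B1, RLTR12E and RNERVK23-int, at -0.64 to -0.25. They were called under 3, 6, 8 and 7 of the 12 alternatives, in that order.

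The largest rises were in subfamilies of low level. RLTR47 (1.61 ± 0.356, adjusted p = 0.00438, edgeR) stood at 0.27, 0.22 and 0.22 CPM in WT and 0.47, 1.21 and 0.55 in MT LK libraries. It and 4 other called rises, ERVB3_1-LTR_MM, RLTR44B, IAPEY5_I-int and RLTR53B_Mm at 1.16 to 1.42, had a mean under 50 counts in MT libraries. The rises that follow had at least 50. RLTR10D stood at 1.54, 0.97 and 0.73 CPM in WT and 2.46, 2.16 and 1.84 in MT LK libraries (0.94 ± 0.202, adjusted p = 0.00361, edgeR). RLTR10C, an LTR of the MMERVK10 type, stood at 6.03, 4.65 and 4.71 CPM in WT and 8.46, 8.34 and 8.93 in MT libraries, with no overlap (0.71 ± 0.107, adjusted p = 0.000184, edgeR). It was called under all 12 alternatives, as were MMETn-int and MMTV-int. ERVB7_2B-LTR_MM, an LTR of the MusD tier, went from 3.60, 3.03 and 2.44 CPM to 4.70, 5.66 and 5.24 (0.75 ± 0.130, adjusted p = 0.000567, edgeR). The remaining 9 of the 12 largest rises with at least 50 counts were RLTR12H, SRV_MM-int, RMER16, RLTR9F, RLTR20A2B_MM, IAPLTR2a, MMERVK10D3_I-int, RLTR12D and RLTR10A, at 0.56 to 0.86. These 9 were less firm: each was called under 5 (RLTR20A2B_MM) to 9 (RLTR12H, RLTR12D and RLTR10A) of the 12 alternatives. Of the IAP tier, IAPLTR1a_Mm rose from 7.18, 6.81 and 6.93 CPM to 8.87, 9.65 and 9.45 (0.39 ± 0.0911, adjusted p = 0.00566, edgeR), and IAPLTR1_Mm and IAPLTR2_Mm were not called, at 0.21 and 0.19.

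For 5 LTRs the level was set against that of an internal region of the same group, in 6 ratios, and all 6 were higher in MT LK libraries. The CPM ratio of IAPLTR1a_Mm to IAPEz-int was 0.0149, 0.0109 and 0.0109 in WT and 0.0199, 0.0203 and 0.0192 in MT libraries. The ratio of IAPLTR1_Mm to IAPEz-int went from 0.120 ± 0.0113 to 0.172 ± 0.0127 (n = 3 each), and that of RLTR10C to MMERVK10C-int from 0.204 ± 0.0447 to 0.363 ± 0.0312. RLTRETN_Mm, the LTR of ETn elements, went from 0.0740 ± 0.00691 to 0.105 ± 0.00818 of MMETn-int and from 2.53 ± 0.427 to 3.25 ± 0.113 of ETnERV-int. RLTR3_Mm went from 0.730 ± 0.0689 to 1.19 ± 0.229 of MMTV-int. Every MT library was above every WT library in each of the 6, by 0.38 to 0.85 on the log2 scale. Each had an exact permutation p of 0.1, the smallest for 3 against 3, and 0.257 after Benjamini-Hochberg adjustment over the 18 ratios tested. The ratios share internal regions or an LTR and are not independent. They also restate changes given above: IAPEz-int, MMETn-int, ETnERV-int and MMTV-int were themselves called lower in MT LK libraries, and MMERVK10C-int was not called (-0.13). RLTRETN_Mm (-0.17, adjusted p = 0.121, edgeR) and RLTR3_Mm (-0.03, adjusted p = 0.925, edgeR) did not rise, so their ratios rose through the fall of the internal region. In 18-month CD11b cells the genotypes overlapped in all 6 ratios, and at 4 months in all but that of RLTR3_Mm to MMTV-int, which was 0.426 ± 0.0264 (n = 3) in MT and 0.351 ± 0.0107 (n = 4) in WT libraries (exact permutation p = 0.0286, adjusted 0.257).

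**Figure D3:**
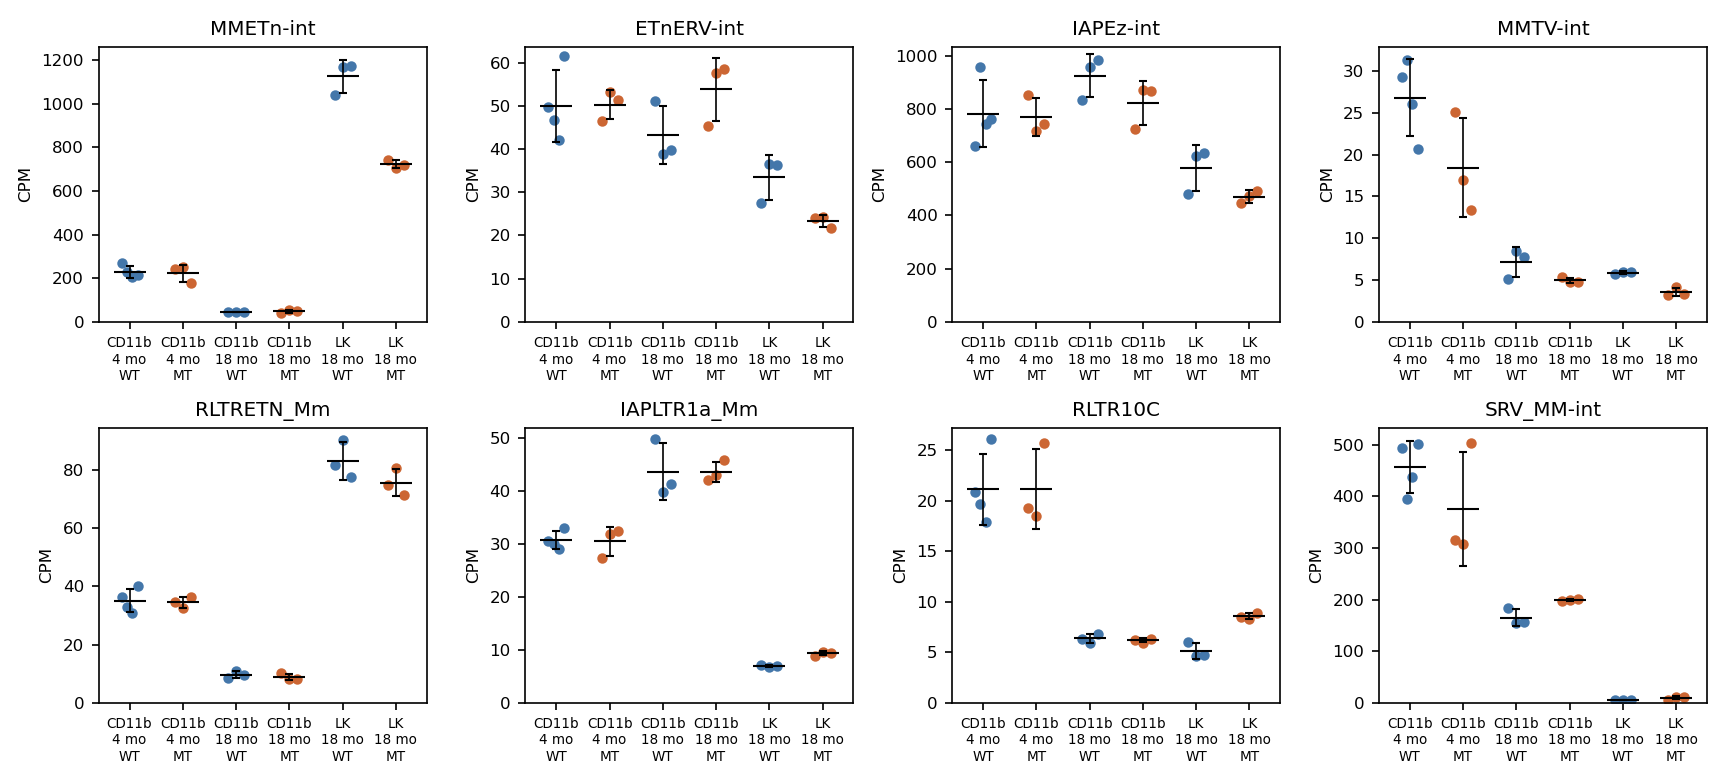
CPM of 4 internal regions (top row) and of 3 LTRs and SRV_MM-int (bottom row) on y axes that start at 0, in each library of the 6 groups (blue WT, orange MT; lines are means, bars SDs). MMETn-int is near 1127 CPM in WT and 722 in MT LK cells and below 60 in 18-month CD11b cells.

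Several measures moved with genotype in LK cells. Myeloid marker genes (8 of 8 listed) summed to 942, 549 and 526 CPM in WT and to 1078, 3260 and 3136 CPM in MT LK libraries, and T and NK markers (6 of 6) to 152 to 188 against 189 to 244. Megakaryocyte markers (4 of 4) summed to 162 to 197 in WT against 204 to 296 in MT. Erythroid (6 of 8) and progenitor (6 of 6) markers were lower in MT, at 2929 to 3024 against 3117 to 3249 and at 903 to 962 against 975 to 991. B lineage (8 of 8) and plasma cell markers (3 of 5) overlapped, at 44.5 to 62.2 against 49.2 to 80.4 and at 148 to 168 against 152 to 199. SRV_MM-int, which stood at 165 CPM in 18-month WT CD11b cells, was high in the MT libraries with the high myeloid sums: it was at 5.28, 5.02 and 5.12 CPM in WT and 6.08, 11.47 and 10.4 in MT LK libraries. Of the 33 called rises, 32 lay above every WT library in MT replicate 1, and all 33 did in MT replicates 2 and 3. The rises were called from these same libraries, so these counts were largely set by the call and bear on no cell type. The part of these cell types in the called members was not tested. Longer transcripts tended to be lower in MT LK libraries: across genes, log2 fold change and transcript length had a Spearman correlation of -0.464 (12556 genes, which are not independent), against 0.198 in 18-month and 0.0585 in 4-month CD11b cells. The part of transcript length in the difference between internal regions and LTRs was not tested. Leaving out 1 library moved the count of called ERVK subfamilies to 14 (MT replicate 2), 66 (WT replicate 1), 10 (WT replicate 2) and 16 (WT replicate 3). With replicates 2 and 3 of each group summed to 1 library, 4 were called: MMETn-int, MMTV-int, RLTR10C and RLTR47.

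Per library, total ERVK counts were lower in MT LK cells, at 4.75 ± 0.0983 against 5.30 ± 0.204 per 1000 gene counts, with no overlap (exact permutation p = 0.1, the smallest possible; 0.3 after adjustment over 9 shares tested). The MT minus WT difference was -0.550 for all ERVK and -0.570 for the ETn and MusD tier, which holds MMETn-int. From WT to MT, RMER counts went from 0.382 ± 0.0108 to 0.438 ± 0.0300 and other ERVK counts from 2.23 ± 0.0558 to 2.34 ± 0.0451. MMTV counts went from 0.0128 to 0.00942. The fall in the total was thus not one of ERVK in general. Internal regions, MMETn-int among them, went from 3.78 ± 0.224 to 3.07 ± 0.0735 and LTRs from 1.53 ± 0.0238 to 1.68 ± 0.0311, neither with overlap. IAP counts were 0.987 ± 0.126 in WT and 0.836 ± 0.0271 in MT libraries and overlapped (exact permutation p = 0.2).

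The difference between cell types in the effect of genotype was tested directly at 18 months. Of 264 ERVK subfamilies, 33 had a called interaction, where 12.5% of all TE subfamilies were called, 9.9% positive and 2.59% negative. Of the members, 29 had a more positive effect of MT in LK than in CD11b cells and 4 a more negative one. MMETn-int had the smallest p of the latter (-0.74 ± 0.125, adjusted p = 0.000847, edgeR), with an effect of 0.06 in CD11b and -0.67 in LK cells. ETnERV-int was at 0.31 in CD11b and -0.55 in LK cells (interaction -0.87 ± 0.212, adjusted p = 0.0228, edgeR). The other 2 were RLTR42 and ERVB4_3-I_MM-int, each below 1.2 CPM in all 18-month groups. The 5 positive interactions with the smallest p were RLTR10A, IAPEY5_I-int, RLTR10C, BGLII_Mus and RMER16, at 0.75 to 1.80. RLTR10C was at -0.05 in CD11b and 0.71 in LK cells (interaction 0.75 ± 0.161, adjusted p = 0.00441, edgeR). With TE-based library sizes 15 positive and 7 negative interactions were called. The count was 17 without CD11b MT replicate 3, 19 without CD11b WT replicate 3 and 57 without LK WT replicate 1. With replicates 2 and 3 summed, edgeR called 0, with 50 at an unadjusted p under 0.05.

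Most ERVK subfamilies differed between the cell types, as did most TE subfamilies. The share of ERVK called was 84.2% in WT and 85% in MT mice, near the 86.2% and 87.1% of all TE subfamilies. In WT mice of 18 months, 218 of 259 subfamilies were called between LK and CD11b cells, 16 higher and 202 lower in LK, where 86.2% of all TE subfamilies were called, 5.25% higher and 81% lower. The median was -1.38, against -1.27 over all TE subfamilies. In MT mice, whose libraries are not shared with the WT comparison, 221 of 260 were called, 26 higher and 195 lower, where 87.1% of all TE subfamilies were called, 7.82% higher and 79.3% lower. Among the 257 subfamilies tested in both genotypes, 202 were called in both, which is 93.5% of the WT calls and 91.8% of the MT calls, and 15 of them were higher and 185 lower in both, while the rest went in opposite directions. Library sizes from the TE counts gave 84 higher and 103 lower in WT and 94 higher and 98 lower in MT, with the median of all TE subfamilies at -0.01 and -0.04, so that the direction of weakly changed members depends on the scale. The members given below as among the 8 largest changes per direction kept their call and direction under every alternative run.

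MMETn-int had the largest called rise in LK over CD11b cells in WT mice and RLTR13G in MT mice. MMETn-int stood at 46.0, 44.4 and 46.0 CPM in 18-month WT CD11b and at 1039.8 to 1173 CPM in WT LK libraries, a log2 fold change of 4.54 ± 0.118 (adjusted p = 6.81e-15, edgeR). In MT mice it was 41.4, 53.7 and 47.9 CPM against 707 to 743 (3.83 ± 0.0860, adjusted p = 4.11e-10, edgeR). Its LTR RLTRETN_Mm was higher in LK cells by 3.02 ± 0.109 in WT and 2.99 ± 0.0848 in MT mice. RLTR13G, an LTR of the other ERVK, went from 8.97, 9.17 and 9.72 to 225, 182 and 184 CPM in WT mice (4.31 ± 0.112), and by 4.55 ± 0.0775 in MT mice. RLTR11A, RLTR13C1 and ERVB7_1-LTR_MM were also among the 8 largest rises in each genotype, at 1.55 to 2.44. RLTR19-int and RNERVK23-int were in that list in WT mice, and RLTR25A and IAPEY4_LTR in MT mice.

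The largest falls in LK against CD11b cells were those of other subfamilies, both internal regions and LTRs. IAPEY5_I-int stood at 28.7, 28.1 and 28.9 CPM in 18-month WT CD11b and at 0.33, 0.14 and 0.22 CPM in WT LK libraries (-7.06 ± 0.188; -5.74 ± 0.128 in MT mice). ETnERV2-int stood at 217, 204 and 208 CPM against 5.90 to 6.17 (-5.20 ± 0.105; -5.02 ± 0.0588 in MT mice), so this member of the ETn and MusD tier had the opposite cell type pattern to MMETn-int. SRV_MM-int was at 184, 154 and 157 against 5.02 to 5.28 CPM (-5.10 ± 0.114 in WT and -4.51 ± 0.254 in MT mice). IAP-d-int, RLTR44-int, RLTR44D and RMER16B3 were among the 8 largest falls in both genotypes, RLTR47 in WT and RLTR50A in MT mice. No IAP subfamily was called higher in WT LK cells, and 19 of 24 were called lower, against 5.25% higher and 81% lower over all TE subfamilies, so the share of IAP called lower was near the background. In MT mice 3 IAP subfamilies were called higher and 18 lower. IAPEz-int differed less than these, by -0.77 in WT and -0.90 in MT mice. Both are smaller than the shift of the TE median with TE-based library sizes (1.27 in WT and 1.18 in MT mice), so its direction may depend on the scale.

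**Figure D4:**
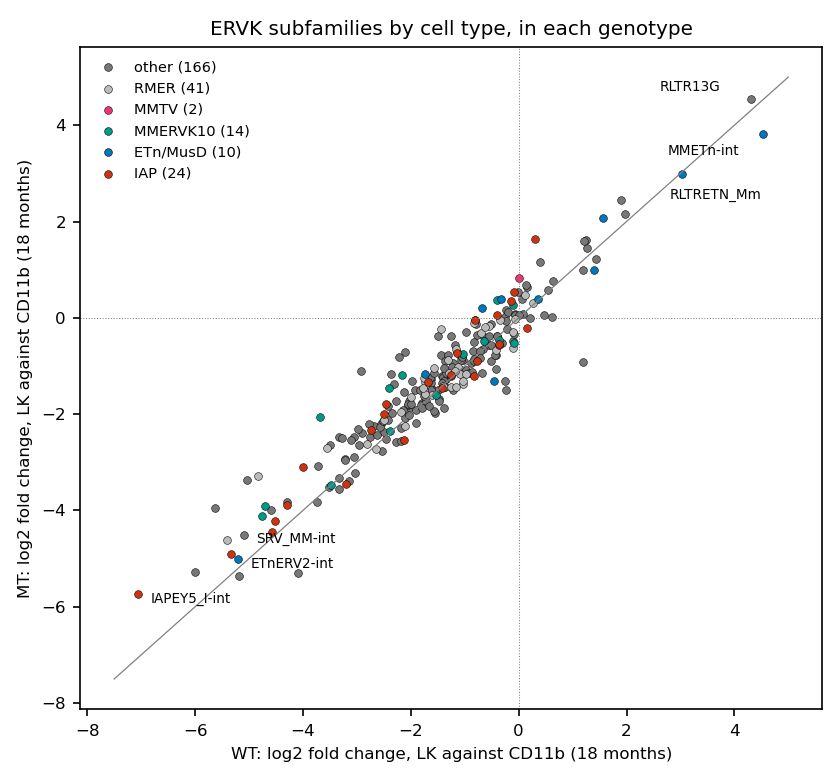
Log2 fold change of LK against CD11b cells at 18 months in WT (x axis) and MT mice (y axis) for the 257 ERVK subfamilies tested in both, coloured by tier with the number of subfamilies in brackets. The grey line marks equal values. MMETn-int, RLTRETN_Mm and RLTR13G lie at the upper right, and IAPEY5_I-int, ETnERV2-int and SRV_MM-int at the lower left.

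In CD11b cells of WT mice, libraries of 18 months were compared with those of 4 months. Of 265 ERVK subfamilies 220 were called, 16 higher and 204 lower at 18 months, where 91.5% of all TE subfamilies were called, 1.98% higher and 89.5% lower. The median was -1.52, against -2.12 over all TE subfamilies. For IAP the median was -0.25, and 7 of 24 IAP subfamilies were called higher and 10 lower. RMER repeats had 0 of 41 called higher and 34 lower, with a median of -1.81. Per 1000 TE counts, a total that includes 7SK, RMER was not lower at 18 months (16.1 against 14.8). Outside ERVK, 3 of 697 TE subfamilies were called higher. Library sizes from the TE counts gave 150 ERVK subfamilies higher and 56 lower, with the median of all TE subfamilies at -0.05 in place of -2.12, so the direction of most members follows from the scale. Relative to that shift ERVK RNA was less reduced than TE RNA in general, and its median under TE-based library sizes was 0.53 (log2). The 7SK counts above, the Ddx3y levels and the age differ together between these sets, and their parts cannot be told apart. Xist is not listed in the 18-month CD11b libraries.

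Among the named subfamilies higher in the 18-month than in the 4-month set, IAP members had the largest rises. Age cannot be told apart from how the sets were prepared. IAP1-MM_I-int stood at 26.6, 24.2, 23.9 and 31.8 CPM at 4 months and at 141, 157 and 159 CPM at 18 months (2.50 ± 0.220, adjusted p = 1.85e-28, edgeR). In MT mice the same subfamily stood at 18.9, 19.4 and 26.5 CPM and at 148, 128 and 127 CPM. IAPLTR4 went from 15.3, 24.1, 23.7 and 25.8 to 72.7, 109.97 and 97.4 CPM (2.05 ± 0.221, adjusted p = 7.14e-20, edgeR), and IAP1-MM_LTR changed by 1.93 ± 0.234. IAP-d-int, RLTR44D, ETnERV2-int, RLTR13C2 and RLTR10-int followed at 0.70 to 0.90. IAPEz-int, the most abundant member, was not called (0.22 ± 0.208, adjusted p = 0.297, edgeR), with 662 to 959 CPM at 4 months and 833 to 985 at 18 months. The largest falls were those of MLTR18A_MM (-3.72 ± 0.276), RLTR44E, RMER17B2, RLTR26, RLTR13C3, MLTR31A_MM, RLTR53B_Mm and RLTR17D_Mm, all below -3.3. All 16 of these named members kept their direction and call under every alternative, the TE-based library sizes included.

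**Figure D5:**
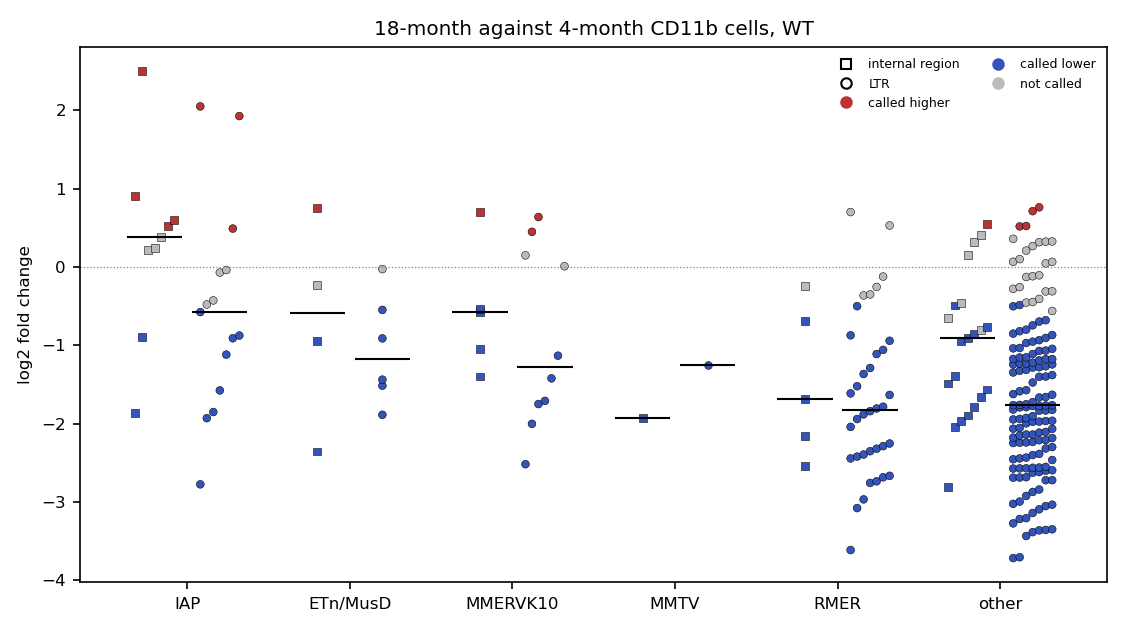
Log2 fold change of 18-month against 4-month CD11b cells of WT mice (y axis) for 265 ERVK subfamilies, by tier (x axis). Squares are internal regions and circles LTRs, coloured where called, and lines are medians. IAP1-MM_I-int, at 2.50, is the highest, the IAP median is -0.25, and RMER and other ERVK lie mostly below -1.

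Genes of the pathways that silence or restrict ERVK elements, here called silencing genes, were read from the gene counts of the same libraries. The list also holds Tet2 and Tet3, whose products act to remove DNA methylation. Of 49 listed, 45 were tested in each set. In LK cells 20 were called, 18 lower and 2 higher in MT, where the test called 29.8% of all genes, 13.9% as higher and 15.9% as lower. The median log2 fold change of the 45 was -0.12, against 0.02 over all genes. Of the 6 DNA methylation genes tested, Tet2 and Tet3 included, 4 were called lower, so these counts pool genes of opposite action. Among H3K9 methyltransferases and their cofactors, Atf7ip, a partner of SETDB1, was at 49.5 ± 8.12 CPM (n = 3) in WT and 32.3 ± 1.46 (n = 3) in MT libraries (-0.64 ± 0.123, adjusted p = 0.0110, edgeR). Setdb1 was at 90.3 ± 2.96 and 78.98 ± 0.519 CPM (-0.22 ± 0.0426, adjusted p = 0.00988, edgeR) and Ehmt1 at 63.6 ± 3.18 and 56.6 ± 0.746 (-0.20 ± 0.0518, adjusted p = 0.0256, edgeR), while Ehmt2 was not called (-0.07, adjusted p = 0.171, edgeR). Dnmt1, the maintenance DNA methyltransferase, was at 433 ± 28.4 and 342 ± 7.21 CPM (-0.37 ± 0.0614, adjusted p = 0.00758, edgeR). The chromatin remodeller genes Atrx (-0.43) and Smarcad1 (-0.33), Zc3hav1, which encodes the antiviral protein ZAP (-0.39), and the HUSH-linked Morc2a (-0.29) were also called lower. Mphosph8, a HUSH subunit (0.35), and Rnaseh2c, an RNase H2 subunit (0.33), were called higher. None of the 5 tested genes of the KRAB zinc finger arm was called, Trim28 (-0.07) and Zfp809 (-0.19) included. The count rested on single libraries: it was 6 without MT replicate 2, 7 without MT replicate 3, 6 without WT replicate 2 and 8 without WT replicate 3, and with replicates 2 and 3 summed edgeR called 0, with 14 at an unadjusted p under 0.05. Other measures move with these falls in MT LK libraries: the correlation of log2 fold change with transcript length (-0.464 over genes), the lower progenitor sums (903 to 962 against 975 to 991 CPM) and the higher myeloid sums. Their part was not tested. Asxl1 was called lower in MT LK libraries (-0.28 ± 0.0575, adjusted p = 0.0119, edgeR) and in neither CD11b set (-0.13 and -0.01).

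In CD11b cells of either age edgeR called 0 of the 45 silencing genes between the genotypes, with 0 at an unadjusted p under 0.05 at 4 months and 6 at 18 months, where 0% and 0.336% of all genes were called, the latter 0.127% higher and 0.209% lower. DESeq2 also called 0 in both. At 18 months the count was 2 without MT replicate 1 and 5 without WT replicate 1. Between WT LK and WT CD11b cells 41 of 45 were called, 26 higher and 15 lower in LK, where 86.8% of all genes were called, 45.1% higher and 41.7% lower. Trim28 was at 107 ± 1.40 CPM in CD11b and 509 ± 11.52 in LK cells (2.16 ± 0.0443, adjusted p = 1.21e-09, edgeR), and Setdb1 and Dnmt1 were higher in LK cells by 0.67 and 0.85. The largest rises were Dnmt3b, Rnaseh2a, Suv39h2, Chaf1b, Trim28 and Zfp708, at 2.05 to 3.94. The restriction factor genes Samhd1 (-3.42) and Mov10 (-3.15) and the silencing factor gene Zfp809 (-0.55) were lower in LK cells.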

How the data were processed

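The values are the counts of reads, as whole numbers, that the authors gave per library for genes and for TE subfamilies. STAR, HTSeq, DESeq2 and the build mm10 are named in the submitters' processing notes, with no versions or roles. How reads with several matches were counted is not given in the sources used here, so a count of a subfamily can hold shared reads and pools all its copies, and a change cannot be placed at a locus. In the TE table of 4-month MT replicate 3 the header names the sample in a different style. Its label was followed. Depth is given with the results.

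TE counts were tested with edgeR 4.0.16 (quasi-likelihood, robust, R 4.3.3, filterByExpr with a minimum of 10 counts) over all subfamilies, with library sizes and TMM factors from the filtered gene counts of the same libraries and Benjamini-Hochberg adjustment over all subfamilies tested. Of the 279 members 266, 261 and 249 passed the filter in the 4-month, 18-month and LK sets. CPM use 1 scale over the 19 libraries. A standard error is the log2 fold change divided by the square root of F. The fits were tested on simulated data. Alternatives were RLE factors, TE-based library sizes, no filter, DESeq2 1.42.0, leaving out each library, a replicate block and replicates 2 and 3 summed. Transcript lengths are the longest per gene in GENCODE M21.

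Members, tiers, gene lists and tests were chosen with earlier results of these data known. Named were the 10 subfamilies with the highest level, a list of well-known young members, the 12 largest called changes per direction and genotype comparison and the 8 largest per cell type or age comparison (mean of at least 50 counts in the higher group), up to 5 interactions per direction by adjusted p, and up to 6 silencing genes per direction beside Trim28, Setdb1, Zfp809, Dnmt1, Ehmt1, Ehmt2 and Asxl1. In the LK comparison the 5 rises under 50 counts, RLTR47 among them, and the levels by cell set were named after their values were seen. Same-numbered libraries did not deviate together in the genotype or cell type comparisons (not every correlation was above 0.1). In the age comparison all 3 were above it, at 0.353, 0.290 and 0.293, but pairs with different numbers ranged from -0.453 to 0.423. By these correlations the numbers mark no pairs there either, and the labels tie no animals across ages.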

Additional observations from a re-analysis of the deposited data

Results flagged for a closer look

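Within the 4 WT libraries of 4 months, 3 of 30 values examined had 1 library far from the others, where chance alone gives about 1 in 20. The MMERVK10 type stood at 0.666 per 1000 gene counts in WT replicate 4, against 0.4 to 0.415 in the other 3. ETnERV2-int stood at 194 CPM in that library against 97.0 to 101 in the others, and MLTR18B_MM at 147 CPM there against 119 to 122. The part of Ddx3y, which marks the same library, was not tested.

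The effect of genotype differed between LK and CD11b cells at 18 months by the test of the interaction for 33 of 264 ERVK subfamilies, where 12.5% of all TE subfamilies were called, the same share as of ERVK. With replicates 2 and 3 of each group summed, edgeR called 0, with 50 at an unadjusted p under 0.05. Named among them were RLTR10A (0.95), IAPEY5_I-int (1.29), RLTR10C (0.75), BGLII_Mus (1.80) and RMER16 (1.18), with a more positive log2 fold change in LK cells, and MMETn-int (-0.74), RLTR42 (-2.14), ERVB4_3-I_MM-int (-1.08) and ETnERV-int (-0.87), with a more negative one.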

How the results depend on the processing

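Leaving out 1 library gave between 0 and 31 called ERVK subfamilies between genotypes in 18-month CD11b cells (2 with all libraries), between 10 and 66 in LK cells (42) and between 17 and 57 for the interaction (33). For silencing genes it gave between 0 and 5 in 18-month CD11b cells (0) and between 6 and 28 in LK cells (20). With replicates 2 and 3 summed, 4 ERVK subfamilies and 0 silencing genes were called in LK cells, and 0 ERVK interactions. At 4 months the count was 1 without MT replicate 3 and WT replicate 4 and 2 with Ddx3y as a covariate. With a replicate block ERVK counts were 0, 2 and 43 for the genotype in the 4-month, 18-month and LK sets, 31 for the interaction, 211 and 222 for cell type and 232 for age, and silencing genes in LK cells went from 20 to 0, with 23 at an unadjusted p under 0.05 in edgeR. By their correlations the replicate numbers do not mark pairs in any comparison, so that loss is no measure of effect size.

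The 4-month difference in ERVK share (MT minus WT, -0.00753 per 1000 gene counts) was 0.976 per 1000 TE counts, 0.0107 on the log2 scale, 0.258 without MT replicate 3 and WT replicate 4, and -0.499 to 0.749 with 1 library left out. That of IAP was -0.00413 to 0.0946 with 1 library left out. Of members that were not called, with 1 library left out RLTR3_Mm ranged from -0.19 to 0.16 in LK cells, and at 18 months IAPLTR1a_Mm ranged from -0.0645 to 0.0957, MMETn-int from -0.0294 to 0.147 and RLTR10C from -0.0928 to 0.000921. With TE-based library sizes IAPLTR1a_Mm was at 0.0321 and MMERVK10C-int at 0.00884 at 18 months. The cause was not tested. Subfamilies under about 1 CPM rest on few counts, and 3 against 3 libraries cannot give an exact p below 0.1.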

Other observations

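In the 4-month set the libraries with Ddx3y, MT replicate 3 and WT replicate 4, were both above the other 5 libraries in 188 of 266 ERVK subfamilies and both below them in 3, which is 70.7% and 1.13%, against 72.8% and 1.33% over the 974 TE subfamilies tested. The ERVK shares were thus near those of all TE subfamilies. The subfamilies above included 35 of 41 RMER repeats and 14 of 24 IAP subfamilies. MLTR18A_MM was at 27.6 and 33.5 CPM in these libraries against 10.7 to 15.6 in the other 5. All TE counts together were 150.2 and 169 per 1000 gene counts in them against 114 to 129 in the other 5. The libraries were singled out by Ddx3y and Xist after the data were seen, 1 is MT and 1 is WT, and no test was made.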
